A study of Mus musculus with 36 samples.

Results

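Chromatin accessibility was examined at 5 gene loci linked to dendritic cell migration: Ccr7, Ccl17, Ccl22, Fscn1 and Cxcl16. Every peak that overlapped the body of one of these genes, or the 10 kb to either side of it, was taken, which gave 41 of the 119751 peaks. Ccr7 and Ccl17 had 9 peaks each, Ccl22 and Fscn1 had 6 each and Cxcl16 had 11. All 41 passed the filter on low counts, although 6 of them had a library with a count of 0.

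The measurement was ATAC-seq, in which a transposase cuts and tags open chromatin, on bone marrow-derived dendritic cells. These were grown with GM-CSF at 15 ng/mL from marrow of female C57BL/6 mice aged 6 to 8 weeks, and 50000 cells entered each library. Ligands of pattern recognition receptors were applied for 6 h. The 36 libraries form 18 groups of 2, all of the same strain and culture. One group was the unstimulated control (Ctrl). The 6 single ligands, named as in the labels, were depleted zymosan (Z), SeV (S), 3',3'-cGAMP (cG), LPS (L), PAM (P) and HMW (H). There were 8 pairs (PL, PH, LH, PS, PcG, ScG, ZS and ZcG) and 3 triplets (PLH, PScG and ZScG). The labels do not say that the libraries of a group came from separate animals or cultures, so the p-values measure only the spread between these libraries.

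CCR7 is the chemokine receptor that guides maturing dendritic cells from tissue through lymphatic vessels to lymph nodes. CCL17 and CCL22 are chemokines that maturing dendritic cells secrete and that draw T cells bearing the receptor CCR4. Fascin, encoded by Fscn1, bundles actin filaments in the dendrites and protrusions of mature dendritic cells, and CXCL16 is a membrane-bound chemokine, released by proteases, that binds CXCR6 on T cells.

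Promoter sequences were read for the 3 member genes found in the RefSeq promoter table (GRCm38.p6). Each runs from 250 bases before the start site to 50 bases from it onwards, lies on the plus strand, and falls wholly inside the start-site peak whose values are given below, which is why it is shown. Capitals mark the bases of motif matches, and negative positions count back from the start site. Ccl17 lies at chr8:94810203-94810502 (GC content 48.0%), Ccl22 at chr8:94745434-94745733 (53.3%) and Fscn1 at chr5:142960105-142960404 (61.7%).
Ccl17: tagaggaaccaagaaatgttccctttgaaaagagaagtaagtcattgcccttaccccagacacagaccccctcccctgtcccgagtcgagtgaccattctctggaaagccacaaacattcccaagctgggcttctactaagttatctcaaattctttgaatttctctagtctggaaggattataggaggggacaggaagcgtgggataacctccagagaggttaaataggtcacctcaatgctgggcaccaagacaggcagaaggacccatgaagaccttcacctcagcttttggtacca
Ccl22: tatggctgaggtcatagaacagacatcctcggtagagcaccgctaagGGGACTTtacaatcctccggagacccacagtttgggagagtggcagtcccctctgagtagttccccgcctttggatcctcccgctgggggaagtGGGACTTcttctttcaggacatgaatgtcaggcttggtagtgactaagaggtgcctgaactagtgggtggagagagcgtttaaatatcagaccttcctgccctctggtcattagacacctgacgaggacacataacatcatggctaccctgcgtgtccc
Fscn1: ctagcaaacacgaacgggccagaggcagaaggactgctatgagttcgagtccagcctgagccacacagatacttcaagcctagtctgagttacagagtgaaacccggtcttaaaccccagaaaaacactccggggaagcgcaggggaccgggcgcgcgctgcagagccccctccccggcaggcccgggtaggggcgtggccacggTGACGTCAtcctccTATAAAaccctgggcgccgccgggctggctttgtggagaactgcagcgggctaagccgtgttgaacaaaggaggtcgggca
Both strands were searched for the kB motif (GGG and TTTCC with 2 bases between them), the interferon-stimulated response element (GAAA and GAAA with 2 bases between them), the AP-1 motif TGANTCA and the PU.1 motif GAGGAAGT, and none of the 3 promoters held any of them. Of all 32817 promoters of that length, 1.63%, 3.43%, 7.81% and 3.2% held these motifs, in that order. A further 3 motifs were added after the sequences had been read. The shortened kB motif GGGACTT, found in 5.44% of all promoters, occurred at bases -203 to -197 and -109 to -103 of Ccl22. The palindromic CRE TGACGTCA, found in 1.79%, occurred at -45 to -38 of Fscn1, and the TATA motif TATAAA, found in 13.6%, at -31 to -26 of Fscn1. None of the matches overlapped another, apart from the CRE read on its opposite strand. A match describes letters and is not a measured site.

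Depth per library was 19097027 to 39977088 counts. The peak that spans the mitochondrial genome took 44.1% to 63.1% of them, which left 8181254 to 21985891. Ctrl, Z, ZcG, ScG and ZScG formed a set with high mitochondrial shares (group means of 58.3% or more), and the other 13 groups had means of up to 54.5%. The sets were split by group mean, and single libraries overlapped. ZS replicate 1, outside the set, had 58.1%, against 57.3% in ScG replicate 1 and 57.9% in ZScG replicate 1 within it. Control thus differs from 13 stimulations in this share as well as in ligand, and these cannot be told apart there, whereas Z, ZcG, ScG and ZScG are compared with control within the set. All 8 dendritic cell markers had a peak at the gene start or end (Itgax 15.1, Flt3 4.88 and Zbtb46 1.06 in control, as CPM, the counts scaled to library size), as did 6 of 6 macrophage and monocyte markers. None was found for Cd3e, Cd3g, Lck, Cd79a, Cd79b, Pax5, Mpo, Elane or Ly6g. Summed marker CPM ran from 73.9 (LH) to 101 (Z) for dendritic cells, against 97.2 in control, and among these genes Ciita, Irf4 and Batf3 were lower than control in 14, 12 and 11 of 17 stimulations. Zbtb46, Flt3 and Cd74 were lower in 1 each, whereas H2-Ab1 was higher in 3 and Itgax in 2. It ran from 119 (PScG) to 165 (control) for macrophages and monocytes and from 10.9 (ZScG) to 26.5 (control) for neutrophils, where 2 of 6 genes had a peak. It ran from 5.6 (PH) to 13.3 (ZS) for T cells (2 of 5 genes), from 1.98 (PScG) to 4.49 (control) for B cells (1 of 5) and from 14.5 (LH) to 21.8 (ZS) for erythroid cells (3 of 4). The part of these shares and marker sums in the results at the migration loci was not tested. In bulk chromatin, a larger share of cells with an open site cannot be told apart from a more open site in each cell.

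Against control, the called changes at the migration loci were mostly toward higher accessibility, while most tests were not called. A peak was called changed when the edgeR quasi-likelihood test gave a Benjamini-Hochberg adjusted p under 0.05 over all 119464 tested peaks. Over 17 stimulations, 170 of 697 tests of member peaks were called higher and 3 lower. That is 24.8% in either direction against 25.2% of all tested peaks, but 24.4% higher against 13.0% of all tested peaks, while 12.3% of all were lower. Of the 41 peaks, 25 were called higher in some stimulation, 2 were called lower, none was called in both directions and 14 were never called. Over those 14 peaks, 8 tests had an unadjusted p under 0.05 and DESeq2 called 0. The control libraries weighed on the total: without control replicate 1 there were 108 higher and 5 lower calls, and without control replicate 2 there were 143 and 0. Calls that held without each library in turn numbered 82 of 173. Within the high mitochondrial set 28 higher and 2 lower calls were made in 164 tests (18.3% in either direction, against 21.9% of all peaks). In the 13 contrasts that cross the sets there were 142 higher and 1 lower in 533 tests (26.8% in either direction, against 26.3%). Within the set, higher calls numbered 1 of 41 with Z, 11 with ScG, 6 with ZcG and 10 with ZScG. Over all peaks, 4.16%, 14.4%, 11.4% and 16.2% were higher in that order.

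The count of member peaks called higher differed between stimulations. Among the single ligands it was 9 with P, 13 with L, 8 with H, 9 with S, 7 with cG and 1 with Z, while 11.1%, 11.2%, 5.21%, 14.1%, 11.6% and 4.16% of all peaks were higher in the same order. Among the pairs it was 10 with PL, 9 with PH, 9 with LH, 11 with PS, 16 with PcG, 11 with ScG, 9 with ZS and 6 with ZcG, against 13.8%, 13.6%, 11.3%, 17.3%, 16.8%, 14.4%, 14.4% and 11.4% of all peaks. The triplets gave 14 with PLH, 18 with PScG and 10 with ZScG, against 14.9%, 19.0% and 16.2%. PScG therefore had the highest count and Z the lowest. The median log2 fold change of the 41 peaks ran from 0.04 (Z) to 1.15 (PScG), whereas the median over all tested peaks lay between -0.04 and 0.04. These 17 comparisons share the same control libraries.

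**Figure D1:**
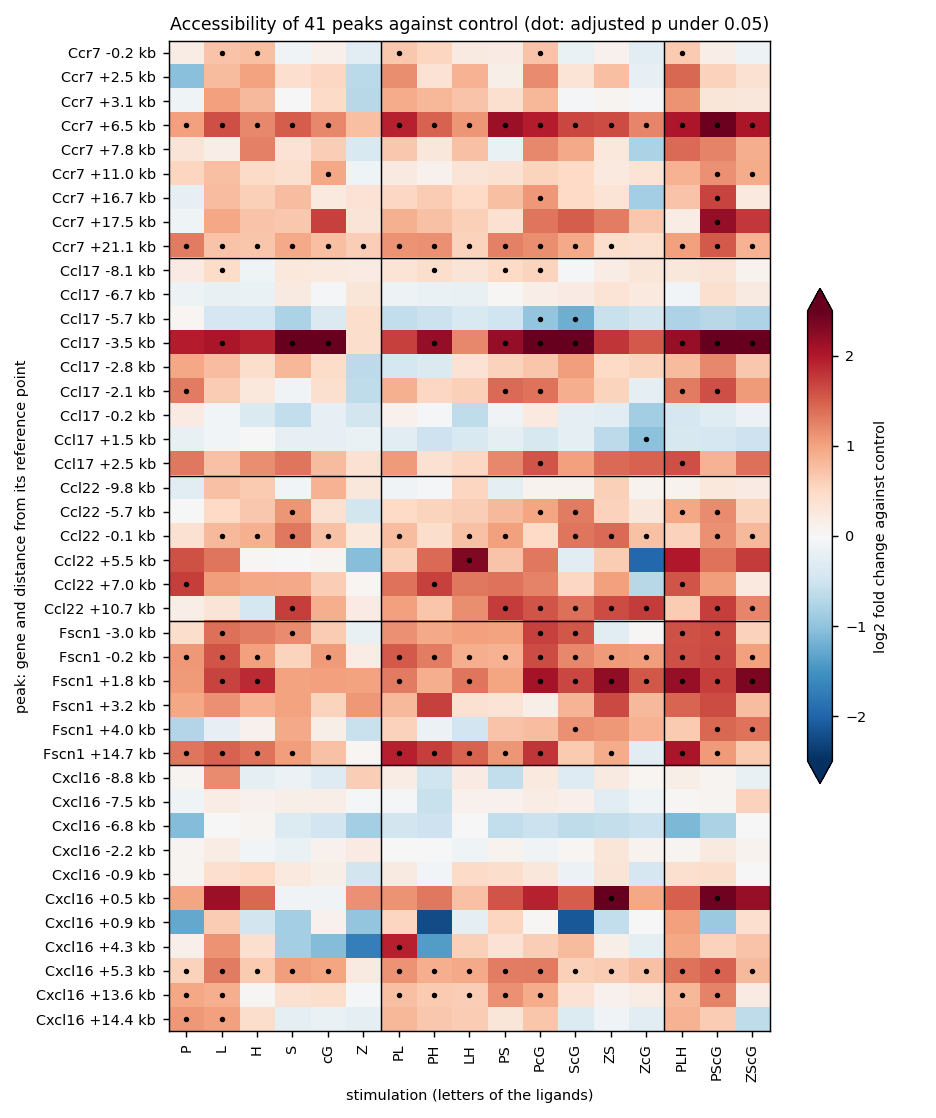
Fitted log2 fold change against control of each of the 41 member peaks (rows, by gene and distance in kb) in 17 stimulations (columns), with called changes marked. Most called cells are positive, the Z column holds 1 call and the PScG column 18.

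At Ccr7, the receptor gene, a peak inside the gene and another beyond it opened with nearly every stimulation. The sources used here give no strand for Ccr7 (chr11:99144199-99155077) or Cxcl16 (chr11:70454389-70459984), so distances at these genes run from the lower-coordinate end. The peak at +21.1 kb (chr11:99164469-99166098) lies 9392 bp beyond the gene body. Its CPM in the replicate libraries was 11.6 and 9.74 in control, 25.4 and 26.9 with P, 18.7 and 16.2 with L, 17.5 and 16.7 with H, 21.9 and 18.9 with S, 17 and 19 with cG, and 18 and 14.7 with Z. With pairs it was 24.3 and 21.7 (PL), 25.3 and 21.6 (PH), 16 and 15.5 (LH), 24.3 and 26.5 (PS), 22.5 and 25.6 (PcG), 21.8 and 19 (ScG), 15.3 and 13.7 (ZS), and 16.2 and 11.9 (ZcG). With triplets it was 21.5 and 21.8 (PLH), 28.5 and 32.7 (PScG), and 20.9 and 17.7 (ZScG). All 34 stimulated libraries lay above both control libraries. The log2 fold change was 1.53 ± 0.15 (SE) with PScG (adjusted p 3.46e-17) and 1.30 ± 0.15 with P (1.00e-12). The test called 16 of 17 stimulations, ZcG being the exception (0.40 ± 0.17, adjusted p 0.0833), and in 12 without control replicate 2, when the calls for H, Z, LH and ZS were lost. ScG (0.94 ± 0.16, adjusted p 5.42e-07) and ZScG (0.86 ± 0.17, 7.57e-06) were called within the high mitochondrial set.

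Inside Ccr7, the peak at +6.5 kb (chr11:99149956-99151478) was called as often. It had 1.64 and 2.32 CPM in control, 4.5 and 3.68 with P, 7.21 and 5.18 with L, 4.83 and 4.31 with H, 5.82 and 5.54 with S, 6.29 and 3.01 with cG, and 3.02 and 3.67 with Z. Pairs gave 6.89 and 8.46 (PL), 4.87 and 6.18 (PH), 4.27 and 4.28 (LH), 8.85 and 8.68 (PS), 5.71 and 9.95 (PcG), 8.0 and 4.59 (ScG), 5.7 and 6.64 (ZS), and 4.95 and 4.45 (ZcG). Triplets gave 8.35 and 7.82 (PLH), 12.1 and 9.82 (PScG), and 8.27 and 8.14 (ZScG). Control libraries were again the 2 lowest of 36. The PScG libraries were 5.46-fold above control in the fit (log2 fold change 2.45 ± 0.30, adjusted p 1.80e-12), and the ZScG libraries 4.1-fold (2.04 ± 0.32, 4.07e-08). It was called in 16 of 17 stimulations (Z, 0.75 ± 0.36, adjusted p 0.228, was not called), and in 11 without control replicate 1, when P, H, cG, LH and ZcG were lost.

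The widest Ccr7 peak, which covers the lower-coordinate end (-0.2 kb, chr11:99141426-99146538, 5113 bp), followed another order. Its libraries held 28.7 and 28.5 CPM in control, 39.1 and 25.9 with P, 38.5 and 55.4 with L, 47.0 and 49.5 with H, 27.0 and 26.7 with S, 33.4 and 28.9 with cG, and 22.8 and 24.3 with Z. Group means were highest with H (48.2), PcG (47.3), L (46.9), PL (45.8), PLH (45.1) and PH (41.3), whose neighbours overlapped, and then dropped to LH at 33.3 without overlap. The lowest were ScG (25.6), ZcG (23.7) and Z (23.6), below control at 28.6. It was called higher with L, H, PL, PcG and PLH (H, 0.75 ± 0.21, adjusted p 0.0202), but none of these 5 calls held without control replicate 1 or without control replicate 2. Over the 18 groups, which share libraries' depth and scaling, its log2 CPM had Pearson's r of 0.308 with the +6.5 kb peak and 0.323 with the +21.1 kb peak, but 0.887 with the +3.1 kb, 0.712 with the +2.5 kb and 0.519 with the +7.8 kb peak inside the gene.

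Other Ccr7 peaks gave few calls. The peak over the higher-coordinate end (+11.0 kb, chr11:99154912-99155519) was called higher with cG, PScG and ZScG, but with none of them once control replicate 1 was left out. Its PScG libraries held 4.58 and 5.12 CPM and its control libraries 1.64 and 2.7. Outside the gene, the +16.7 kb peak had 6.82 and 7.97 CPM with PScG against 2.29 and 2.32 in control (1.68 ± 0.34, adjusted p 2.14e-05), a call that held without each library. The PcG call there (1.08 ± 0.35, 0.0097) was lost without either control library. At +17.5 kb only PScG was called (2.42 and 0.996 CPM against 0.328 and 0.386 in control, adjusted p 0.0151), a call lost without either control library. The remaining internal peaks, at +2.5, +3.1 and +7.8 kb, were called in no stimulation.

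**Figure D2:**
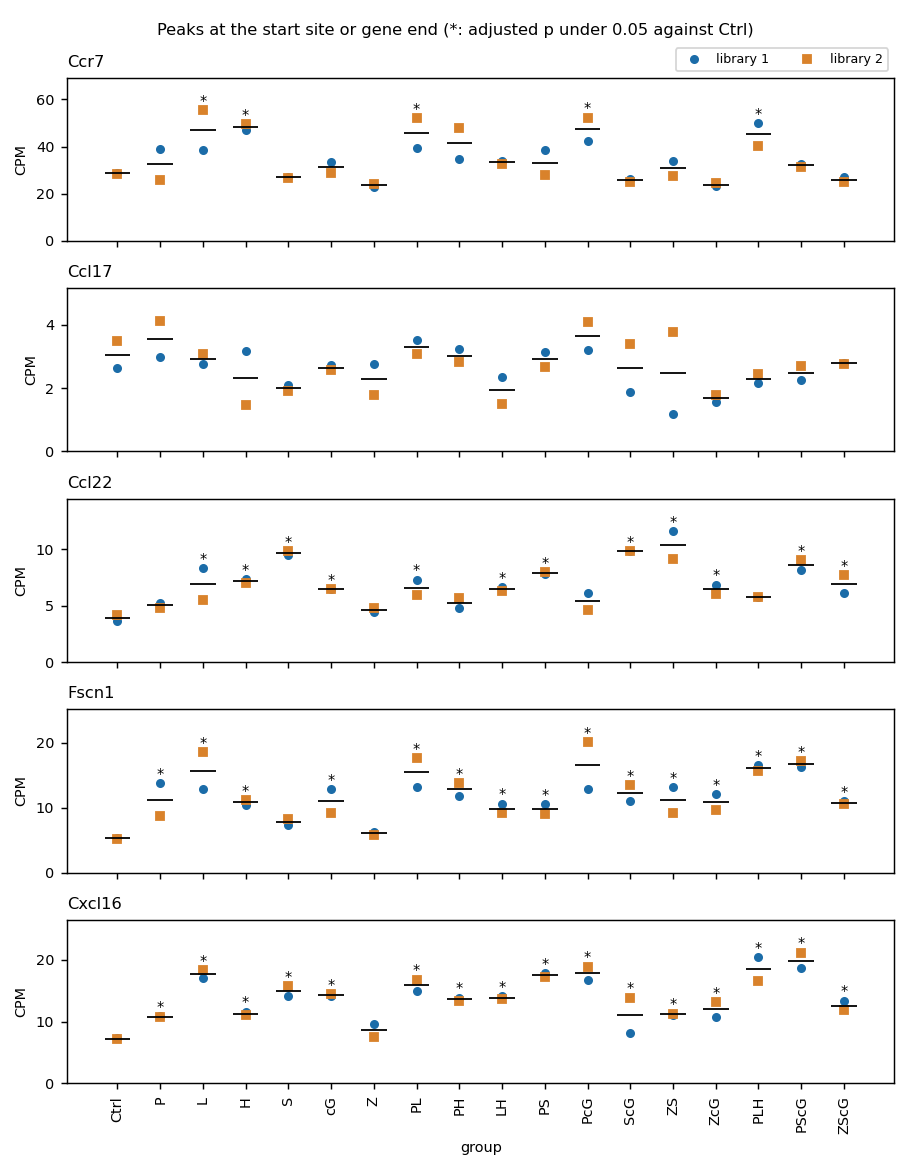
CPM of the peak at the gene start, or at the gene end chosen by mean level for Ccr7 and Cxcl16, in each of 36 libraries (points) with the group mean (bar) and called changes starred, by group. Control lies lowest of the 18 groups for Ccl22, Fscn1 and Cxcl16 but not for Ccr7 or Ccl17.

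At Ccl17, the peak at the RefSeq promoter start site did not pass the test in any stimulation. That site (chr8:94810453) lies inside the annotated gene body, which begins at chr8:94809380. The start-site peak (chr8:94809933-94810655) held 2.62 and 3.47 CPM in control, 2.98 and 4.12 with P, 2.76 and 3.07 with L, 3.18 and 1.46 with H, 2.09 and 1.91 with S, 2.71 and 2.58 with cG, and 2.76 and 1.78 with Z. Pairs gave 3.52 and 3.06 (PL), 3.22 and 2.81 (PH), 2.35 and 1.51 (LH), 3.14 and 2.67 (PS), 3.21 and 4.08 (PcG), 1.86 and 3.39 (ScG), 1.18 and 3.78 (ZS), and 1.57 and 1.78 (ZcG). Triplets gave 2.15 and 2.43 (PLH), 2.24 and 2.7 (PScG), and 2.79 and 2.76 (ZScG). Control ranked 4 of 18, and in that order 16 of the 17 neighbouring groups overlapped. The log2 fold change ran from -0.86 ± 0.43 (ZcG, adjusted p 0.141) to 0.25 ± 0.36 (PcG, 0.642). Of the 17 tests, 1 had an unadjusted p under 0.05, and DESeq2 called 0.

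Upstream of Ccl17, the peak at -3.5 kb (chr8:94806696-94807114) had the widest log2 differences from control at that gene, on few counts. Control libraries held 0 and 5 counts (0 and 0.482 CPM), and ScG libraries 38 and 24 (3.53 and 2.62 CPM), a log2 fold change of 3.56 ± 0.70 (adjusted p 1.35e-05). PScG had 2.6 and 2.13 CPM (3.17 ± 0.70, 9.48e-05) and PcG 1.58 and 2.74 (3.03 ± 0.70, 0.000208). Z libraries, at 0.262 and 0.42 CPM, fell within the control range. It was called in 10 stimulations, and the 3 just given were those that held without each library; without control replicate 1, the only one at 0, there were 3 calls, and without control replicate 2 there were 16. The -2.1 kb peak, 782 bp before the annotated beginning of the gene body, was called higher in 5 stimulations. Its call held with PScG alone (3.68 and 3.56 CPM against 1.09 and 1.25, 1.61 ± 0.45, adjusted p 0.0021). The 2 calls at +2.5 kb (PcG and PLH) were lost without control replicate 2. The -8.1 kb peak, at 18.5 and 15.3 CPM in control, rose by at most 0.56 ± 0.14 (PcG, 23.8 and 26.1 CPM, adjusted p 0.000818), and its 4 calls were lost without control replicate 2.

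Peaks called lower against control were found at Ccl17 and at no other member gene. The -5.7 kb peak held 3.17 and 5.21 CPM in control against 2.05 and 1.53 with ScG (-1.22 ± 0.38, adjusted p 0.00876) and 1.73 and 2.55 with PcG (-0.99 ± 0.35, 0.0182). The +1.5 kb peak over the gene end held 5.14 and 6.75 CPM in control and 2.53 and 3.34 with ZcG (-1.02 ± 0.32, 0.0109). All 3 calls were lost without control replicate 2. In total Ccl17 had 21 higher and 3 lower calls, or 11 and 5 without control replicate 1 and 18 and 0 without control replicate 2.

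At Ccl22, the start site was highest in 5 of the 6 groups that received S. The start-site peak (chr8:94745262-94745877) held 3.61 and 4.15 CPM in control, 5.26 and 4.84 with P, 8.34 and 5.5 with L, 7.37 and 6.98 with H, 9.49 and 9.84 with S, 6.45 and 6.45 with cG, and 4.46 and 4.83 with Z. Pairs gave 7.32 and 5.91 (PL), 4.8 and 5.67 (PH), 6.62 and 6.27 (LH), 7.78 and 7.96 (PS), 6.17 and 4.65 (PcG), 9.86 and 9.83 (ScG), 11.6 and 9.12 (ZS), and 6.88 and 6.01 (ZcG). Triplets gave 5.8 and 5.75 (PLH), 8.17 and 9.04 (PScG), and 6.15 and 7.72 (ZScG). By group mean the order began with ZS (10.4), ScG (9.85), S (9.66), PScG (8.6) and PS (7.87), which all contain S, whereas ZScG (6.93) ranked below H (7.17). The log2 fold change was 1.41 ± 0.26 with ZS (adjusted p 3.22e-06), 1.34 ± 0.26 with ScG (9.58e-06), 1.31 ± 0.25 with S (7.18e-06), 1.15 ± 0.26 with PScG (9.85e-05) and 1.02 ± 0.25 with PS (0.00051). These 5 held without each library, while the other 7 calls (L, H, cG, PL, LH, ZcG and ZScG) were lost without control replicate 1. P (0.38 ± 0.27, adjusted p 0.351) and Z (0.26 ± 0.29, 0.687) did not pass.

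Downstream of Ccl22, the +10.7 kb peak (chr8:94756150-94756691) had 3.6 and 3.57 CPM with S against 1.42 and 0.772 in control (1.72 ± 0.46, adjusted p 0.00169), and 3.74 and 3.56 with ZcG (1.75 ± 0.48, 0.00324). It was called in 8 stimulations, all of which were called without control replicate 1 and none without control replicate 2. The -5.7 kb peak was called in 5, at most 1.29 ± 0.37 with ScG (4.0 and 5.79 CPM against 1.64 and 2.32, adjusted p 0.00444), and without control replicate 1 in none. The +7.0 kb peak was called with P, PH and PLH, and held 2.67 and 1.81 CPM with P against 0.656 and 0.675 in control, a call lost without either control library. Inside the gene, the +5.5 kb peak was called with LH alone (2.32 ± 0.86, adjusted p 0.0391), on 0 and 5 counts in control and 31 and 8 with LH. That call was lost without control replicate 1, without LH replicate 1 and by DESeq2. Summed over the 6 peaks, Ccl22 had group means of 8.9 CPM in control, 20.1 with S and 9.42 with Z.

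At Fscn1, the start-site peak opened with nearly every ligand and combination. This peak (chr5:142958952-142961393, 2442 bp) held 5.35 and 5.21 CPM in control, 13.8 and 8.67 with P, 12.8 and 18.5 with L, 10.4 and 11.2 with H, 7.26 and 8.3 with S, 12.8 and 9.24 with cG, and 6.3 and 5.77 with Z. Pairs gave 13.1 and 17.6 (PL), 11.8 and 13.8 (PH), 10.6 and 9.12 (LH), 10.5 and 9.01 (PS), 12.9 and 20.1 (PcG), 11.0 and 13.4 (ScG), 13.1 and 9.22 (ZS), and 12.1 and 9.68 (ZcG). Triplets gave 16.5 and 15.7 (PLH), 16.3 and 17.1 (PScG), and 11.0 and 10.5 (ZScG). Control, Z, S and then PS stood lowest by group mean (5.28, 6.03, 7.78 and 9.74), with no overlap between neighbours up to PS. The log2 fold change was 1.66 ± 0.21 with PScG (adjusted p 2.38e-11), 1.63 ± 0.21 with PcG (2.90e-11) and 1.58 ± 0.21 with L (3.42e-10). In 15 of 17 stimulations it was called, and all 15 calls held without each library in turn, the 3 within the high mitochondrial set (ScG, ZcG and ZScG) included. S (0.56 ± 0.23, adjusted p 0.0505) and Z (0.19 ± 0.25, 0.753) did not pass.

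Beyond the gene, the Fscn1 peak at +14.7 kb (chr5:142974427-142975764) had 2.29 and 2.51 CPM in control, 7.4 and 4.84 with P, 5.3 and 8.03 with L, 6.35 and 6.03 with H, 5.69 and 4.24 with S, 4.62 and 3.44 with cG, and 1.31 and 3.46 with Z. Pairs gave 9.12 and 9.37 (PL), 8.22 and 7.7 (PH), 6.8 and 6.5 (LH), 5.08 and 5.29 (PS), 7.49 and 9.12 (PcG), 3.63 and 3.93 (ScG), 5.38 and 3.87 (ZS), and 2.17 and 1.78 (ZcG). Triplets gave 10.5 and 9.37 (PLH), 5.93 and 4.2 (PScG), and 2.91 and 4.83 (ZScG). PLH stood highest (2.04 ± 0.29, adjusted p 1.89e-09), followed by PL (1.94 ± 0.30, 2.48e-08). All 12 calls fell on groups outside the high mitochondrial set, and inside it the values were 0.65 ± 0.34 (ScG), 0.66 ± 0.35 (ZScG), 0.04 ± 0.37 (Z) and -0.29 ± 0.38 (ZcG), none called. Of the 12, 9 held without each library.

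Inside Fscn1, the +1.8 kb peak rose from 0.546 and 1.06 CPM in control to 4.02 and 4.41 with ZScG (2.35 ± 0.47, adjusted p 1.92e-05) and 2.9 and 4.7 with ZS (2.22 ± 0.47, 6.29e-05). Its 11 calls came down to 4 without control replicate 1. The +4.0 kb peak was called with ScG, PScG and ZScG, with 4.13 and 3.7 CPM in PScG against 1.42 and 1.45 in control (1.44 ± 0.44, adjusted p 0.00524). The PScG call held without each library, while those of ScG and ZScG were lost without either control library, and that of ScG by DESeq2 as well. Upstream, the -3.0 kb peak was called in 6 stimulations, or in 2 without control replicate 1. It held 3.31 and 3.76 CPM with PcG against 0.874 and 1.25 (1.71 ± 0.44, adjusted p 0.000981). Fscn1 had 47 higher calls over 6 peaks and 17 stimulations, 31 of which held without each library.

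At Cxcl16, the peak over the higher-coordinate end opened broadly and an outlying peak more narrowly. The former (+5.3 kb, chr11:70459174-70460206), which also overlaps Zmynd15, held 7.32 and 7.14 CPM in control, 10.9 and 10.7 with P, 17 and 18.3 with L, 11.6 and 11.1 with H, 14.1 and 15.7 with S, 14.1 and 14.5 with cG, and 9.58 and 7.55 with Z. Pairs gave 15.0 and 16.8 (PL), 13.9 and 13.3 (PH), 14.1 and 13.6 (LH), 17.8 and 17.3 (PS), 16.7 and 18.9 (PcG), 8.19 and 13.9 (ScG), 11.1 and 11.3 (ZS), and 10.7 and 13.2 (ZcG). Triplets gave 20.5 and 16.5 (PLH), 18.7 and 21.2 (PScG), and 13.4 and 11.9 (ZScG). All stimulated libraries lay above both control libraries. It was called in 16 of 17 stimulations, at most 1.47 ± 0.18 with PScG (adjusted p 4.66e-12), then 1.36 ± 0.18 with PLH (1.87e-10) and 1.29 ± 0.18 with L (2.10e-09). Z did not pass (0.23 ± 0.21, adjusted p 0.602). Of the 16 calls, 11 held without each library, and those of P, H, ScG, ZS and ZcG did not. ScG libraries differed among themselves, and without ScG replicate 2 that call was lost.

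The outlying peak at +13.6 kb (chr11:70467566-70468356) separated the ligands. It held 9.94 and 8.01 CPM in control, 18 and 17.1 with P, 16.7 and 16.7 with L, 8.19 and 10.2 with H, 11.4 and 12.0 with S, 11.1 and 13.1 with cG, and 8.14 and 9.02 with Z. Pairs gave 13.9 and 16.7 (PL), 14.7 and 13.5 (PH), 13.6 and 13.8 (LH), 18.1 and 21.3 (PS), 15.8 and 18.5 (PcG), 12.7 and 10.3 (ScG), 8.28 and 10.9 (ZS), and 10.5 and 9.79 (ZcG). Triplets gave 16.9 and 14.8 (PLH), 19 and 23.1 (PScG), and 11.1 and 9.51 (ZScG). Calls fell on exactly those 9 groups that contained P or L, at most 1.24 ± 0.18 with PScG (adjusted p 1.15e-09). None of the other 8 groups passed, H standing at 0.03 ± 0.19 (adjusted p 0.953). All of the 9 lie outside the high mitochondrial set, and 7 of the 9 calls held without each library (PH and LH were lost without control replicate 2).

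Its neighbour at +14.4 kb was called with P (4.27 and 5.42 CPM against 1.64 and 2.89 in control, 1.08 ± 0.36, adjusted p 0.0191) and with L (1.03 ± 0.35, 0.0229), and neither call held without control replicate 1. The +4.3 kb peak was called with PL alone, and not without either control library. Inside the gene, the +0.5 kb peak was called with ZS (2.60 ± 0.91, adjusted p 0.0213) and PScG, on 0 and 4 counts in control and 9 and 17 with ZS, and both calls were lost without control replicate 1. The peaks at -2.2 and -0.9 kb, which overlap the neighbouring gene Med11, were called in no stimulation. The first of them was among the stronger of the 41 peaks, with a mean of 19.7 CPM, and its log2 fold change stayed between -0.17 (S) and 0.31 (ZS).

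Differences between single ligands, whose groups share no control library and lie outside the high mitochondrial set, were next compared for P, L, H, S and cG. Over 10 comparisons, 31 of 410 tests were called (7.56%, against 11.0% of all peaks), 10 higher and 21 lower, against 5.22% and 5.75% of all peaks. S against P held 12 of the 31, with 6 peaks higher and 6 lower, where 11.6% and 12.9% of all peaks were called. Leaving out S replicate 2 reduced the 31 to 20. Ccl22 was more open with S than with P at the start site (0.94 ± 0.23, adjusted p 0.000685), at -5.7 kb and at +10.7 kb (1.55 ± 0.42, 0.00261). Within Fscn1, the +4.0 kb peak was also more open with S (2.88 and 2.64 CPM) than with P (0.763 and 0.939), by 1.68 ± 0.46 (adjusted p 0.00239). Conversely, Cxcl16 at +13.6 kb (-0.58 ± 0.16, 0.00354) and +14.4 kb (-1.32 ± 0.34, 0.00144) was less open with S. Both genes were also called in the opposite direction, Cxcl16 at +5.3 kb (0.47) and Fscn1 at the start site (-0.52). Of the 12 calls, those at the Ccl22 start site, Fscn1 +4.0 kb, Cxcl16 +13.6 kb and Cxcl16 +14.4 kb held without each library.

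**Figure D3:**
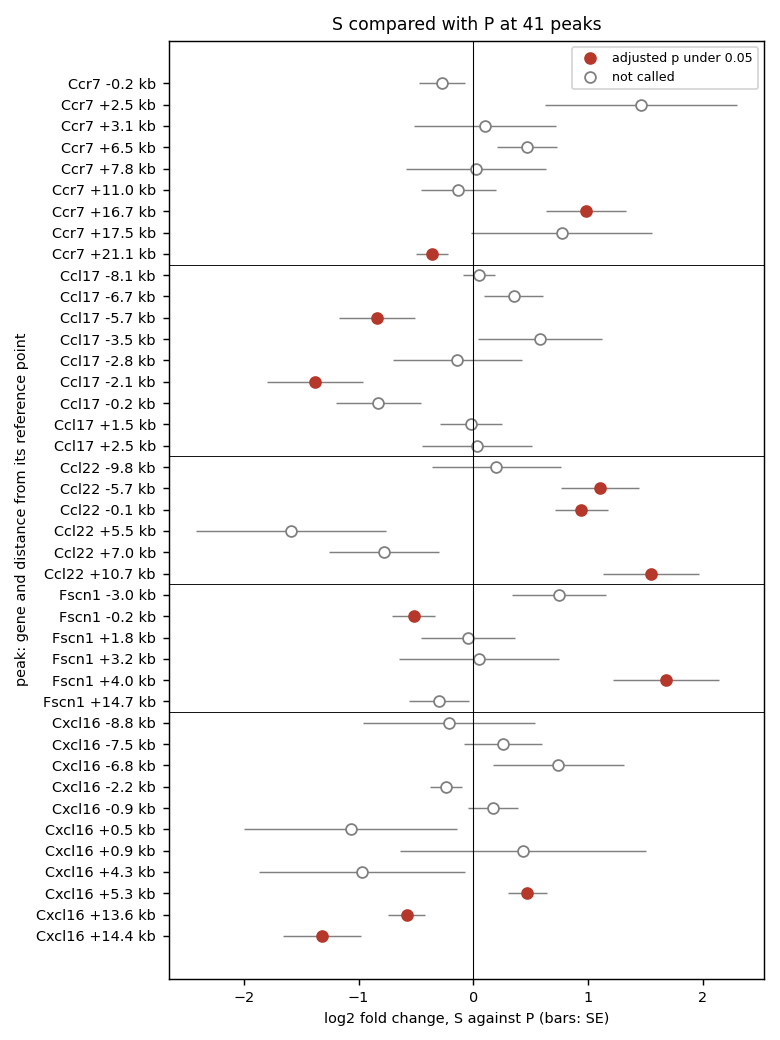
Fitted log2 fold change of S against P for the 41 member peaks, by gene and distance in kb, with standard errors and called changes marked. Called Ccl22 peaks lie above 0, and the Cxcl16 peaks at +13.6 and +14.4 kb lie below it.

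Other comparisons of single ligands gave fewer calls. Ccr7 at +21.1 kb was less open with H (-0.61 ± 0.14, adjusted p 0.000569) and with cG (-0.54 ± 0.14, 0.00149) than with P. Cxcl16 at +13.6 kb was less open with H than with P (-0.95 ± 0.17, 6.50e-06), the lowest p among these comparisons. At +5.3 kb it was more open with L than with P (0.71 ± 0.16, 0.000838). The Fscn1 start site was less open with S than with L (-1.02 ± 0.19, 1.37e-05), and the Ccl22 +10.7 kb peak was more open with S than with H (2.15 ± 0.45, 0.000222). These calls held without each library. Between cG and S, 0 of 41 peaks were called, against 0.949% of all peaks, with 4 at an unadjusted p under 0.05 and 0 by DESeq2. Between cG and H, 0 were called, against 7.36% of all peaks, with 7 at an unadjusted p under 0.05 and 1 by DESeq2.

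**Figure D4:**
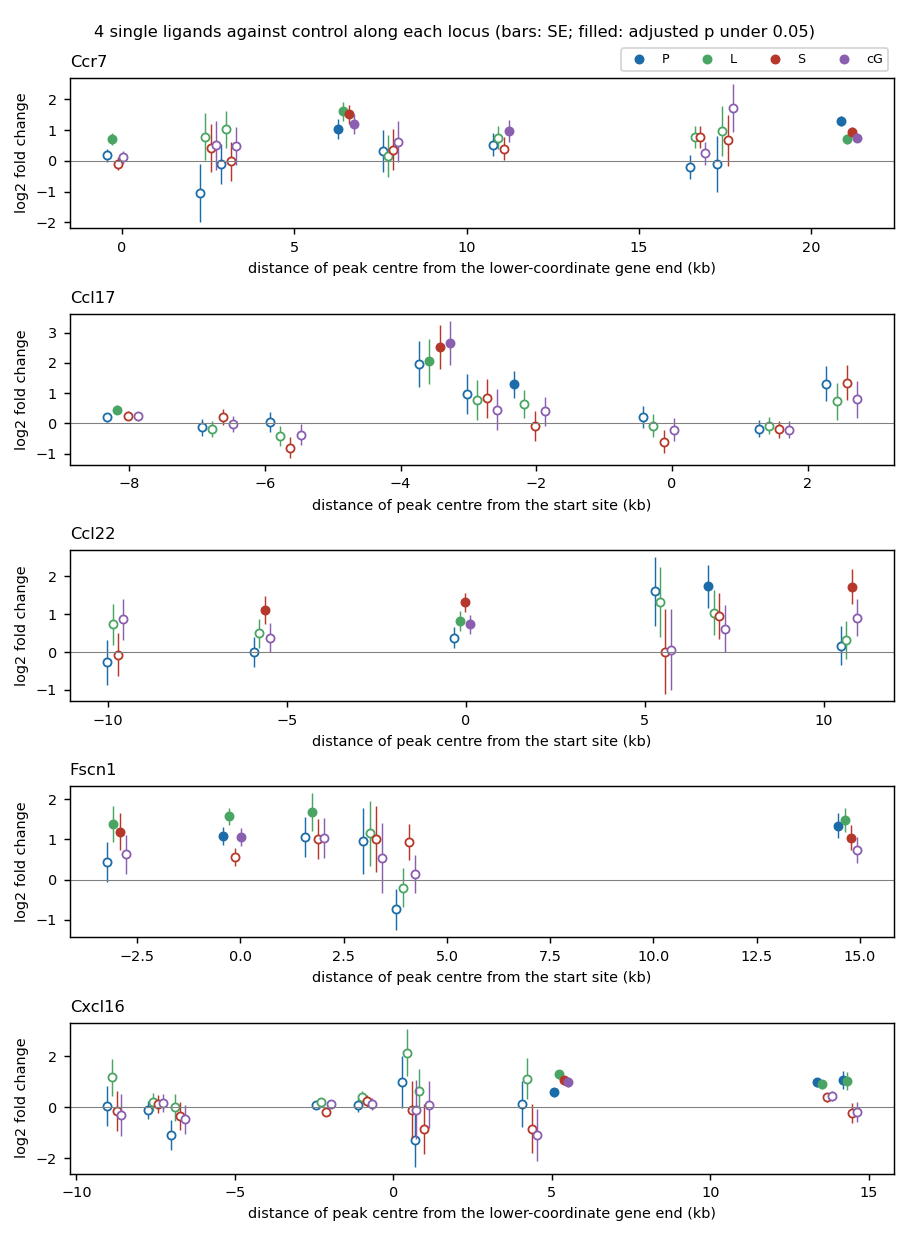
Fitted log2 fold change against control, with standard errors, by distance in kb along each of the 5 loci for P, L, S and cG. Filled points are called changes. At the Ccl22 start site the S point is highest, and at Cxcl16 +13.6 kb the P and L points are.

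Adding a second ligand to a first was compared over 16 contrasts of a pair with each of its ligands. Of 656 tests, 42 were called (6.4%, against 6.48% of all peaks), 39 higher and 3 lower, whereas 3.56% of all tests were higher and 2.92% lower. Adding cG to P raised 9 peaks (7.39% of all peaks were higher), adding S to P raised 6 (9.36%) and adding S to Z raised 7 (6.63%). With S added to P, Ccr7 at +6.5 kb rose from 4.5 and 3.68 to 8.85 and 8.68 CPM (1.10 ± 0.25, adjusted p 0.000412) and Cxcl16 at +5.3 kb by 0.70 ± 0.16 (0.000528). With cG added to P, Cxcl16 at +5.3 kb rose by 0.72 ± 0.16 (0.000565). With S added to Z, the Ccl22 start site rose from 4.46 and 4.83 to 11.6 and 9.12 CPM (1.15 ± 0.25, 0.000381). These 4 of the 42 calls held without each library. Z lies in the high mitochondrial set and ZS does not, so in that comparison the added ligand and the set cannot be told apart. Adding P to S raised Cxcl16 at +13.6 kb by 0.75 ± 0.16 (adjusted p 0.000501), the lowest p at that peak in this family, and the call was lost without PS replicate 2 (0.63, 0.0824).

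Pairs were then set against the sum of their ligands. A pair interaction is AB - A - B + control on the log2 scale, and below 0 it means a pair less open than the sum of both changes. Of 328 tests, 18 were called (5.49%, against 5.18% of all peaks), all lower, against 2.07% of all tests higher and 3.1% lower. In the higher direction, 5 tests had an unadjusted p under 0.05 and DESeq2 called 0. LH had 7 (2.62% of all peaks were lower), PL 3 (4.18%), PS 2 (2.9%) and ScG 2 (7.52%). PH (1.08%), PcG (2.17%), ZS (2.6%) and ZcG (1.74%) had 1 each. All 8 interactions hold the same control libraries. In the ZS interaction the high mitochondrial groups cancel, and in the other 7 they do not.

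The Ccr7 +21.1 kb peak was below additivity in each of the 8 pairs: -0.89 (PL), -0.85 (PH), -0.83 (LH), -0.98 (PS), -0.88 (PcG), -0.76 (ScG), -1.10 (ZS) and -0.98 (ZcG). PL (adjusted p 0.00171), PS (0.000377) and ZS (0.000313) held without each library, and the other 5 lost their calls without control replicate 2. In LH, 3 Ccr7 peaks, 3 Fscn1 peaks and 1 Cxcl16 peak were below additivity. At the Fscn1 start site, L libraries held 12.8 and 18.5 CPM, H libraries 10.4 and 11.2, and LH libraries 10.6 and 9.12, and the interaction was -1.70 ± 0.29 (adjusted p 9.60e-06). Cxcl16 at +5.3 kb gave -1.0 ± 0.25 in LH (0.00588) and -1.44 ± 0.26 in ScG (4.51e-06). At +13.6 kb it gave -1.11 ± 0.24 in PL (0.000564). All 4 held without each library. The PL interaction at the Fscn1 start site (-1.14 ± 0.29, 0.00405) was lost without P replicate 1 (-0.76, 0.142), without L replicate 2 (-0.83, 0.105) or without PL replicate 1 (-0.93, 0.0617).

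**Figure D5:**
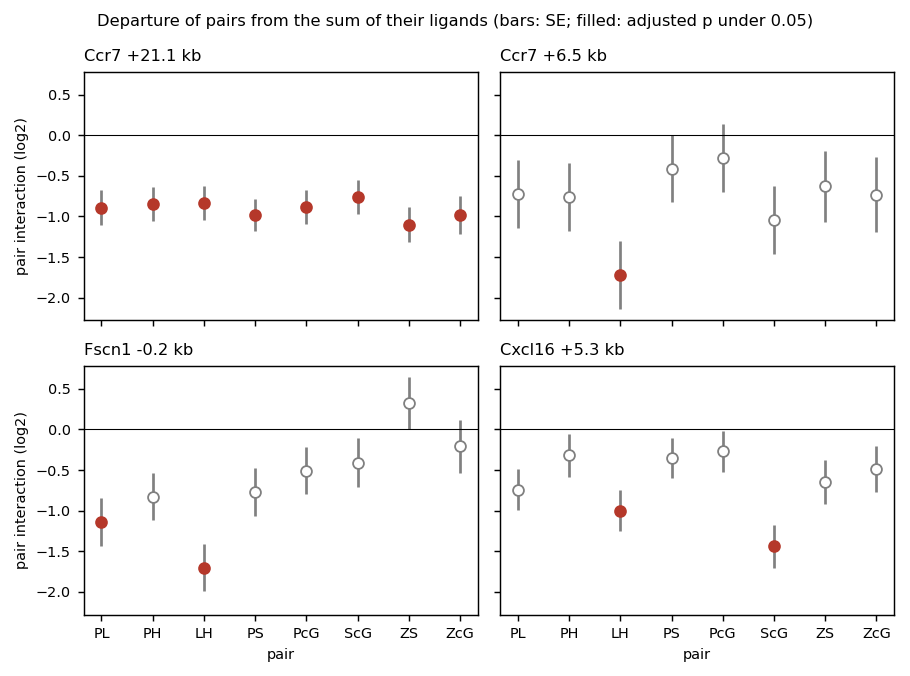
Pair interaction (log2 scale, with standard errors) in 8 pairs for the Ccr7 +21.1 kb, Ccr7 +6.5 kb, Fscn1 -0.2 kb and Cxcl16 +5.3 kb peaks. The Ccr7 +21.1 kb values lie between -1.10 and -0.76, and the lowest Fscn1 value is LH at -1.70.

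Triplets were compared with their pairs. Over 9 contrasts of a triplet with a pair, 7 of 369 tests were called (1.9%, against 1.11% of all peaks), all higher (0.497% of all tests were higher). In the lower direction, 7 had an unadjusted p under 0.05 and DESeq2 called 0. Adding P to ScG gave 5 of the 7, where 2.11% of all peaks were higher, 3 at Ccr7 and 2 at Cxcl16. The other 2 were at the Fscn1 start site (L and H with P added, and PS with cG added). Cxcl16 at +13.6 kb rose from 12.7 and 10.3 to 19 and 23.1 CPM (0.87 ± 0.17, adjusted p 0.000134), which held without each library. ScG lies in the high mitochondrial set and PScG does not. Without PScG replicate 2 the 7 calls were 3, and without ScG replicate 2 they were 4.

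The triplet interaction adds the triplet and its 3 single ligands and subtracts its 3 pairs and control, on the log2 scale. It asks whether a pair interaction differs with and without the other ligand, and above 0 it does not mean that a triplet exceeds the sum of its ligands. At Ccr7 +21.1 kb the ZScG change against control was 0.86, where Z, S and cG alone gave 0.61, 0.94 and 0.76. Of 123 tests, 4 were called (3.25%, against 1.56% of all peaks), all higher (0.837% of all tests), and in the lower direction 1 had an unadjusted p under 0.05 and DESeq2 called 0. PLH had 2 (0.511% of all peaks higher), PScG 1 (1.03%) and ZScG 1 (0.974%). Ccr7 at +21.1 kb gave 1.39 ± 0.31 in ZScG (adjusted p 0.00369), which held without each library, and 1.15 ± 0.28 in PScG (0.00961), which was lost without control replicate 2 (1.02, 0.0505) and without S replicate 1 (1.04, 0.0516). Fscn1 gave 1.59 ± 0.39 in PLH at the start site (0.0191) and 3.24 ± 0.83 at +1.8 kb (0.0288). Both were lost without control replicate 1 (1.61, 0.0516 and 2.87, 0.12) among other libraries, and 2 calls in all remained without control replicate 1, PH replicate 1, PL replicate 1 or P replicate 1.

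Within a locus, peaks did not all follow the start-site peak. Over the 18 groups, Pearson's r of group-mean log2 CPM with the peak at the start or chosen end was 0.796 for Cxcl16 +13.6 kb, 0.695 for Fscn1 +14.7 kb, 0.684 for Ccl22 -5.7 kb and 0.588 for Ccl22 +10.7 kb. For the other Ccl17 peaks it ran from -0.332 (-6.7 kb) to 0.527 (-2.1 kb). Between genes, it was 0.78 for Fscn1 with Cxcl16, 0.624 for Ccr7 with Fscn1 and -0.384 for Ccl17 with Ccl22. These points share libraries, depth and scaling. Likeness was searched among peaks at the starts or ends of protein-coding genes on other chromosomes, 14573 to 15073 for each member gene. The most alike over the 18 groups were those of Pamr1 (0.842), Gpr34 (0.839) and Cxcl5 (0.814) for the Ccr7 peak at the lower-coordinate end. For Ccl17, whose start-site peak was called in no stimulation, they were those of Tmco6 (0.814), Apbb2 (0.795) and Panx2 (0.72). They were Rnf34 (0.87), Sost (0.855) and Ifnb1 (0.847) for Ccl22, Psma6 (0.879), Nos2 (0.872) and Snx32 (0.841) for Fscn1, and Cxcr5 (0.904), Ift22 (0.899) and Il6 (0.896) for Cxcl16. Each value is among the highest of many correlations over 18 groups, and such a selection yields high values by itself. Whether any of them exceeds chance was not tested.

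Genes around the migration loci were read at their start-site or gene-end peaks in the 17 comparisons with control. Of the partners of the members, 3 of 7 had such a peak (Ccr4, Adam10 and Adam17, the last 2 encoding proteases that release CXCL16), with 1 higher and 4 lower calls in 51 tests. Ccr4, the receptor gene for CCL17 and CCL22, was not called and had at most 0.93 CPM as a group mean. Cxcr4, a chemokine receptor gene, was lower in 10 of 17 stimulations (-0.92 to 0.04).

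Calls at the maturation genes of migratory dendritic cells were more often higher, but unevenly between genes: 124 of 340 tests were higher (36.5%) and 36 lower (10.6%). Of the 20 genes, 16 had a higher call, 5 a lower call and 2 (Cd86 and Traf1) none. Cd80 was higher in 1 stimulation, Cd83 in 5, Relb in 6 and Il15 in 15, and Birc3 was higher in 1 and lower in 2. Cd40, a costimulatory receptor, and Marcksl1 were higher in 17 of 17 stimulations (0.84 to 1.83 and 0.56 to 1.67). Nfkb2, a subunit of the non-canonical NF-kB pathway, and Il4i1 were higher in 16, and so was the chemokine gene Ccl5 (0.34 to 4.64). In contrast, Marcks and Tbc1d4 were lower in 16. Of 20 actin and migration genes, 8 had a higher and 11 a lower call (44 and 49 of 340 tests). Cdc42, a small GTPase of cell polarity, was higher in 14 and the actin-severing cofilin gene Cfl1 in 12, while Dock8, a Cdc42 activator, was lower in 14 and Ezr in 9. Of 102 tests over 6 matrix genes, 22 were higher and 27 lower. Plaur, the urokinase receptor gene, was higher in 15 and the metalloproteinase gene Mmp14 in 5, whereas Mmp12 and Mmp2, also metalloproteinase genes, were lower in 15 and 11. Over all peaks, 13.0% of tests were higher and 12.3% lower. The lists were chosen with earlier results of these data known.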

How the data were processed

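ATAC-seq was measured in 36 libraries of bone marrow-derived dendritic cells (18 groups of 2, taken from the sample titles). The authors deposited 1 table of unnormalized counts for 119751 peaks shared by all libraries, and a separate list of the peaks' positions. Per the submitters' processing notes, Bowtie2 2.2.9, MACS2, bedtools, featureCounts and the build mm10 were used. Their roles, duplicate handling and read-end shifting are not given in the sources used here. Amplified reads carry no molecular identifiers. The SE and p-values rest only on the spread between libraries of a group, estimated over all 18 groups.

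Genes came from a RefSeq table (GRCm38.p6). The members, gene lists and tests were chosen with earlier results of these data known. The peak over the mitochondrial genome was left out, and filterByExpr (minimum count 10) dropped 286 peaks and kept 119464. TMM scaling came before the edgeR 4.0.16 fit (R 4.3.3; glmQLFit, robust, trended dispersion, common value 0.02), with 1 coefficient per group and 18 residual degrees of freedom. Adjusted p-values are Benjamini-Hochberg over all tested peaks within each of 63 contrasts: 17 against control, 10 between single ligands, 16 of pairs with a ligand, 8 pair interactions, 9 of triplets with a pair and 3 triplet interactions. CPM use TMM-scaled library sizes without the mitochondrial peak and are not divided by peak length. Correlations use log2 CPM with a prior count of 2. The code was tested on simulated data.

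Full statistics follow a rule: the peak with the highest mean within 1 kb of the start site (of either gene end where no strand is given), the highest and lowest called change against control per gene (with at least 1 CPM and no overlap with control), and the lowest p in each other family of contrasts. Other member peaks are named with fewer values, and the Fscn1 +14.7 kb peak, and the Ccr7 +21.1 kb and Cxcl16 +13.6 kb peaks in comparisons beyond that rule, were given in full after their values were seen. Alternatives were RLE and total-count scaling, no filter, the mitochondrial peak kept, DESeq2 1.42.0, a dispersion per peak, a replicate block, thinning to one depth, and leaving out each library. Fits without 1 library kept the filter and the dispersion trend of the fit of all libraries, so the library left out still shaped these. Results for some listed genes, and the trafficking receptor list as a whole, are not reported here.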

Additional observations from a re-analysis of the deposited data

Results flagged for a closer look

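Each pair interaction that was called at a member peak is a tested difference in the effect of one ligand with and without another, and each triplet interaction is a tested difference in a pair interaction with and without the other ligand. The counts of member peaks called in pair interactions were 3 (PL), 1 (PH), 7 (LH), 2 (PS), 1 (PcG), 2 (ScG), 1 (ZS) and 1 (ZcG). In triplet interactions they were 2 (PLH), 1 (PScG) and 1 (ZScG). The Ccr7 +21.1 kb peak accounts for a call in each of the 8 pairs and in PScG and ZScG. The pair interactions all contain the same control libraries.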

How the results depend on the processing

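No call at a member peak changed direction under any alternative run, and calls of listed genes outside the 5 loci were not compared under the alternatives. Under total-count scaling, which shifts the median of all peaks by -0.06 to 0.42 on the log2 scale and the share of higher calls over all peaks from 51.4% to 76.3%, the member peaks called against control rose from 173 to 262 (260 higher, 2 lower). Those called when a ligand was added to another rose from 42 to 72 (49 higher, 23 lower, against 39 and 3), in pair interactions from 18 to 50, when a ligand was added to a pair from 7 to 16 and in triplet interactions from 4 to 14. Thinned to one depth, triplet interactions gave 2. Leaving out 1 library at a time gave 113 to 173 calls against control, 20 to 33 between single ligands, 29 to 43 when a ligand was added to another, 13 to 21 in pair interactions, 3 to 7 when a ligand was added to a pair and 2 to 6 in triplet interactions. The replicate block gave 172, 30, 41, 18, 7 and 4 in the same order. Deviations of same-numbered libraries correlated by -0.04 to 0.03 over 153 pairs of groups, 0 of them over 0.1. No shared deviation was thus seen, which cannot tell whether same-numbered libraries came from the same animal or culture. Over called values, RLE scaling kept 274 and lost 1, DESeq2 kept 256 of 274, thinning kept 210 and lost 65, and fits without 1 library kept 800 of 1220. The cause of these changes was not tested. With 2 libraries a group, and member peaks at few counts, changes at weak peaks were not detectable at this depth unless large.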
